A study of Mus musculus with 18 samples.

Results

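The 3 libraries of fibroblasts collected at P13, 3 days after sham surgery at P10, were compared with the 3 libraries collected at P5, 3 days after sham surgery at P2, across all genes. These 6 libraries are part of a bulk RNA sequencing series of 18, which also holds un-manipulated P2 and P10 hearts and hearts after apical resection at P2 or P10. All pups were Tcf21 MerCreMer/+; Rosa mTmG/+ mice on the C57BL/6J background and received tamoxifen at P1. In these mice a tamoxifen-inducible Cre under control of the Tcf21 locus switches a membrane reporter from tdTomato to GFP, so that GFP marks cells that expressed Tcf21 around the injection, and their descendants. Sham-operated pups did not lose the apex, and both groups had the same interval between surgery and collection. The apical part of the ventricles was digested, and GFP+ cells were collected by flow sorting. The antibody against Pdgfra, a receptor of cardiac fibroblasts, was added to the cells, but the libraries were sorted on GFP. The model has limits that bear on the comparison. Only the lineage labelled at P1 was sampled, the time since tamoxifen was longer in the older pups, older hearts were digested for longer, and surgery age and collection age moved together. Pup sex and the number of pups behind 1 library are not stated in the labels. The p-values therefore measure only the spread between these libraries, which may be partly technical. In what follows, the groups are called P5 sham and P13 sham after the age at collection, and their libraries are numbered 1 to 3 as in the labels.

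Cardiac fibroblasts divide in the newborn heart and leave the cell cycle in the weeks after birth, while they lay down the matrix that bears the load of the growing ventricle. Collagens give this matrix tensile strength, elastic fibres of elastin on a fibrillin scaffold give it recoil, and matricellular proteins tune how cells attach to it. The cell cycle is driven by cyclins and their kinases, and many of their genes are switched on together in S phase or before mitosis through promoter elements bound by E2F, DREAM and B-MYB complexes and NF-Y.

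The sham libraries held 14297349 to 21941305 counted reads. Expression is reported in CPM, the reads of a gene relative to the TMM-scaled total of its library, and differences are log2 fold changes of P13 over P5, so that positive values are higher at P13. Libraries of 1 group correlated at r = 0.892 to 0.969 and libraries of different groups at 0.878 to 0.945 across 16170 genes, which are not independent replicates. P5 library 1 correlated better with P13 library 1 (0.907) than with P5 library 2 (0.892), and each pair of 1 group differed by far more than sampling noise. Tcf21, the transcription factor whose locus drives the Cre, was at 331 ± 103 CPM (SD, n = 3) at P5 and 283 ± 50.8 CPM at P13 (log2 fold change -0.23, standard error 0.26, edgeR adjusted p = 0.75). Pdgfra was at 367 ± 166 CPM (SD, n = 3) at P5 and 531 ± 302 CPM at P13 (log2 fold change 0.53, standard error 0.40, edgeR adjusted p = 0.568). Both fibroblast genes were present in every library, and their groups overlapped. Libraries numbered 1 stood apart from the others at both ages by a shift towards long transcripts. The median difference from the other 2 libraries of the group, on the log2(CPM + 1) scale over 9704 genes with a mean of at least 10 CPM at either age, was 1.43 higher among the longest than among the shortest transcripts (4 bins of equal size by exon length) in P5 library 1 and 1.16 higher in P13 library 1. The same difference was -1.05 and -0.27 in P5 libraries 2 and 3 and -0.59 and -0.51 in P13 libraries 2 and 3. Both ages held 1 such library, and the median log2 fold change between the ages over all 6 libraries differed by -0.09 between the longest and the shortest. Without both libraries 1, fewer genes were called, and the calls that then ended are named beside the results. Sex-linked transcripts also varied. Xist without Y-linked transcripts was seen in P5 libraries 1 and 3 and in P13 library 3, and Y-linked transcripts without Xist in P5 library 2 and in P13 libraries 1 and 2. With a term for these transcripts 370 genes were called, of which 355 were among the 515 reported below.

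**Figure D1:**
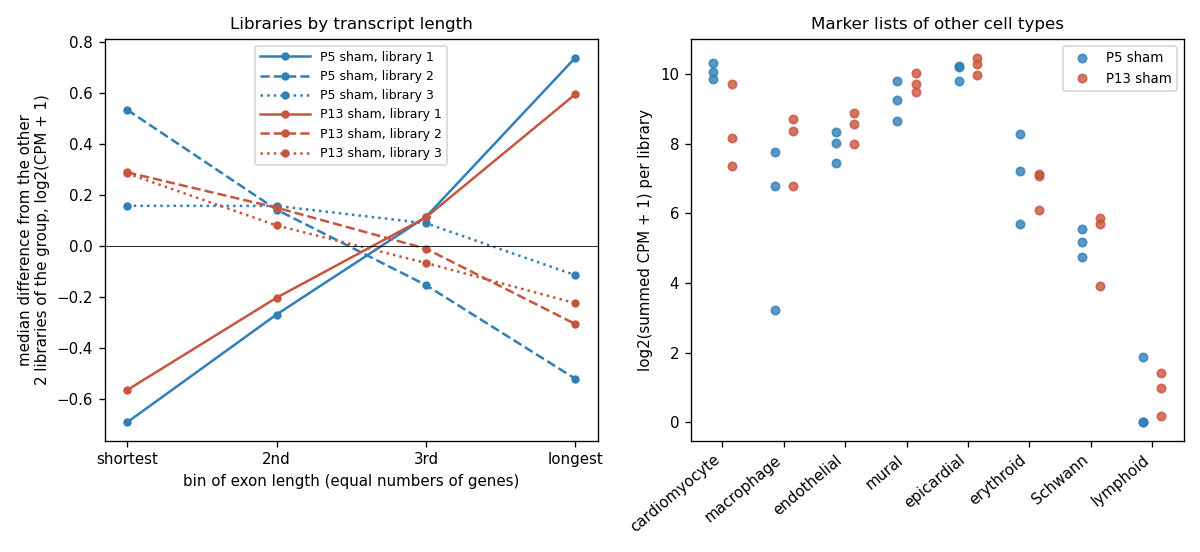
Left, median difference of each sham library from the other 2 libraries of its group, on the log2(CPM + 1) scale, in 4 bins of exon length. Right, summed CPM of the marker lists of other cell types per library, on the log2(CPM + 1) scale, with 1 point a library. Library 1 of each age rises towards long transcripts and the others fall, and only the cardiomyocyte list lies without overlap between the ages, lower at P13.

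Between P13 sham and P5 sham, 515 of 16170 genes were differentially expressed by edgeR's quasi-likelihood F-test, with p-values adjusted after Benjamini and Hochberg and a threshold of 0.05, which is 3.18% of the genes tested. Of these, 249 (1.54%) were higher and 266 (1.65%) were lower at P13. The lower genes changed by more, with a median log2 fold change of -2.59 against 1.62 for the higher ones, and 104 of the lower genes but 30 of the higher ones changed by more than 8-fold. The 3 libraries of one age lay outside the range of the other for all 249 higher genes and for 264 of the 266 lower ones. Over all genes tested, 9.07% had all P13 libraries above all P5 libraries and 7.61% had them all below. The median log2 fold change of all genes was -0.07. Among the lower genes, 66 belonged to the lists of S phase and G2/M phase genes that are shipped with the Seurat package. Among the higher genes, 30 belonged to the lists of extracellular matrix genes. The call of 204 genes (100 higher and 104 lower) held in all 6 fits that left out 1 library. The number of genes called fell to 327 without P5 library 3, to 322 without P13 library 1 and to 312 without P13 library 3. Without both libraries numbered 1 it fell to 249 (117 higher and 132 lower), of which 226 were among the 515. The 6 sham libraries fitted alone gave 125 (59 higher and 66 lower), of which 122 were among the 515. In that fit 45 of 111 named calls held, and those that ended are not all named beside the genes. DESeq2 called 1285 genes and edgeR without a filter on low counts 911. The shares of 1.54% higher and 1.65% lower are the background for the counts per list below.

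**Figure D2:**
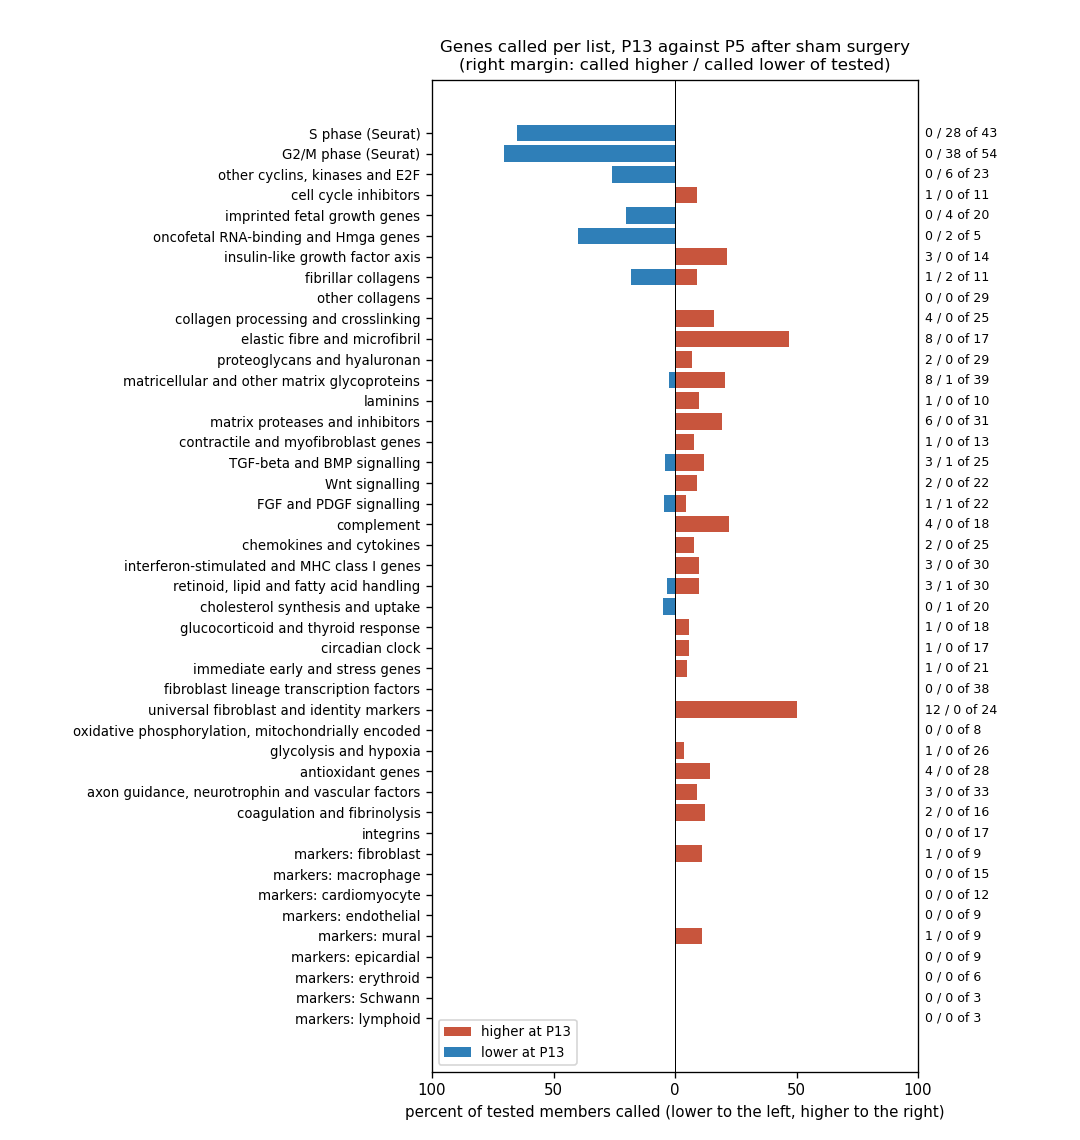
Percent of the tested members of each gene list called between P13 sham and P5 sham, with genes lower at P13 to the left and higher to the right, and the counts in the right margin. The lists of S phase (28 of 43) and G2/M phase (38 of 54) genes lie far to the left, and the lists of universal fibroblast (12 of 24) and elastic fibre (8 of 17) genes reach furthest to the right. Over all genes tested, 1.54% were called higher and 1.65% lower.

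Genes of cell division were lower at P13. Of 54 G2/M phase genes, 38 fell, none rose and 53 had a log2 fold change below 0, with a median of -2.97 against -0.07 for all genes. The summed level of the list was 5219, 4109 and 4755 CPM at P5 and 1374, 1575 and 1357 CPM at P13. The ages did not overlap on this sum, and the P13 libraries lay close together. Cdk1, the kinase that drives entry into mitosis, was at 108, 262 and 213 CPM at P5 and at 10.5, 27.7 and 11.6 CPM at P13 (log2 fold change -3.55, standard error 0.48, edgeR adjusted p = 0.000489). Its partner Ccnb1, cyclin B1, was at 34.7, 67.6 and 89.7 CPM at P5 and at 3.35, 14 and 5.0 CPM at P13 (log2 fold change -3.11, standard error 0.56, edgeR adjusted p = 0.00422). Ccnb2, cyclin B2, was at 101, 97.3 and 119 CPM at P5 and at 19.3, 19.3 and 11.4 CPM at P13 (log2 fold change -2.67, standard error 0.38, edgeR adjusted p = 0.000702). In all 3 genes every P13 library lay below every P5 library, with the largest spread within P5. Of the exon sequence of Ccnb1, 23.4% of 50-base stretches also occur in another gene, mostly the pseudogene Ccnb1-ps. Reads from these stretches may not have been counted. Mki67, whose product Ki-67 coats mitotic chromosomes and is the usual histological mark of cycling cells, was at 433, 33.3 and 80.3 CPM at P5 and at 16, 5.76 and 3.82 CPM at P13 (log2 fold change -4.42, standard error 1.13, edgeR adjusted p = 0.0401). P5 library 1 was far above the other P5 libraries for this long transcript, and the ages still did not overlap. Top2a, the topoisomerase that untangles sister chromatids, was at 309.6, 118 and 179.9 CPM at P5 and at 29.7, 19.8 and 7.54 CPM at P13 (log2 fold change -3.41, standard error 0.64, edgeR adjusted p = 0.0055). The call of Mki67 (without P5 library 1 or P13 library 1, 2 or 3, edgeR adjusted p up to 0.165) did not hold with 1 library left out. That of Mki67 ended without both libraries 1. The list count was 28 to 33 with 1 sham library left out, 25 without both libraries 1 and 22 when the 6 sham libraries were fitted alone.

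The smallest p-values among the lower genes belonged to 3 short transcripts of dividing cells. Hmgb2, a chromatin protein of proliferating cells, was at 148, 219.8 and 159 CPM at P5 and at 21.2, 25.2 and 30.5 CPM at P13 (log2 fold change -2.77, standard error 0.33, edgeR adjusted p = 0.000236). Cks2, a small subunit of the mitotic kinases, was at 18.8, 38.7 and 27.2 CPM at P5 and at 2.5, 3.49 and 2.26 CPM at P13 (log2 fold change -3.36, standard error 0.40, edgeR adjusted p = 0.000242). Birc5, or survivin, a member of the chromosomal passenger complex, was at 67.8, 105 and 96.7 CPM at P5 and at 4.4, 9.44 and 6.18 CPM at P13 (log2 fold change -3.75, standard error 0.46, edgeR adjusted p = 0.000259). Each was several-fold higher in every P5 library than in any P13 library, and the calls of all 3 held with any 1 library left out. In Cks2, 29.7% of 50-base stretches also occur in Gm15452, and in Hmgb2 18.7% occur in other genes, mostly Gm4739.

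The 12 largest falls were ranked among called genes without overlap and with a mean of at least 10 CPM at P5. Of these falls 11 are described. They were at genes of mitosis or DNA repair, with the exception of Tnni1, which is taken up with the cardiomyocyte markers. Cenpe, the kinesin that carries chromosomes to the metaphase plate, had the largest of these falls and was at 116, 8.62 and 38.4 CPM at P5 and at 0.0499, 0 and 0.754 CPM at P13 (log2 fold change -7.53, standard error 1.09, edgeR adjusted p = 0.000786). All P13 libraries were near 0, while P5 library 1 was the highest. Kntc1, a kinetochore protein of the spindle checkpoint, was at 40.9, 3.09 and 5.55 CPM at P5 and at 0.0999, 0.129 and 0.472 CPM at P13 (log2 fold change -6.06, standard error 1.44, edgeR adjusted p = 0.027). The ages were apart here too, with P5 library 1 again the highest. Kif4, a chromosome-bound kinesin, was at 44.5, 24.8 and 32.2 CPM at P5 and at 0.799, 2.39 and 0.0472 CPM at P13 (log2 fold change -5.00, standard error 0.90, edgeR adjusted p = 0.00397). Aspm, which organises spindle poles, was at 88.9, 13.5 and 22.3 CPM at P5 and at 2.3, 1.62 and 0.33 CPM at P13 (log2 fold change -4.88, standard error 0.98, edgeR adjusted p = 0.00903). Bub1, a kinase of the spindle checkpoint, was at 20.2, 20.8 and 32.4 CPM at P5 and at 0, 3.1 and 0 CPM at P13 (log2 fold change -4.61, standard error 1.11, edgeR adjusted p = 0.0282). P13 libraries 1 and 3 had no read of Bub1, and library 2 carried all of those seen at P13. Kif15, a spindle kinesin, was at 68.7, 23.5 and 23.1 CPM at P5 and at 1.2, 3.43 and 0.754 CPM at P13 (log2 fold change -4.44, standard error 0.60, edgeR adjusted p = 0.000476). Neil3, a DNA glycosylase of S phase cells, was at 55.2, 17.5 and 27.8 CPM at P5 and at 0.25, 1.81 and 2.59 CPM at P13 (log2 fold change -4.43, standard error 0.85, edgeR adjusted p = 0.00632). Shcbp1, a protein of the dividing cell's midbody, was at 39.5, 45.2 and 88.3 CPM at P5 and at 3.0, 2.13 and 3.44 CPM at P13 (log2 fold change -4.33, standard error 0.77, edgeR adjusted p = 0.00382). The groups did not overlap for any of these 3, and P5 libraries differed among themselves more than P13 libraries did. Cdc25c, the phosphatase that activates Cdk1, was at 20.6, 19.8 and 24.1 CPM at P5 and at 0, 3.23 and 0 CPM at P13 (log2 fold change -4.36, standard error 1.13, edgeR adjusted p = 0.0439), again with reads at P13 in library 2 alone. The calls of Kntc1 (without P5 library 1 or P13 library 1, 2 or 3, edgeR adjusted p up to 0.11), Bub1 (without P5 library 3 or P13 library 1 or 3, edgeR adjusted p up to 0.0688) and Cdc25c (without P5 library 1, 2 or 3 or P13 library 1 or 3, edgeR adjusted p up to 0.0904) did not hold with 1 library left out. Those of Kntc1, Aspm, Bub1, Neil3 and Cdc25c ended without both libraries 1. Exons of Kif4 overlap those of Pdzd11 on the other strand over 15.1% of their length and those of Cdc25c overlap Gm3550 over 12.7%, and reads were counted without regard to strand.

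**Figure D3:**
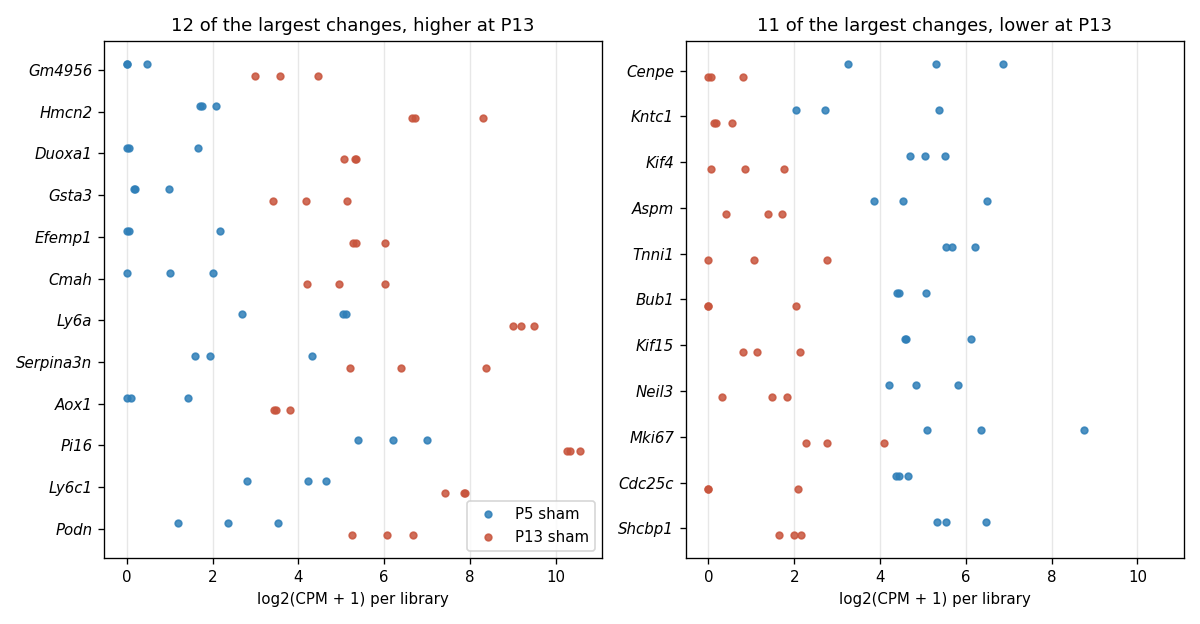
Level of 11 of the 12 genes with the largest fall and of the 12 with the largest rise at P13 in each sham library, on the log2(CPM + 1) scale, with 1 point a library. The ages do not overlap for any of the genes shown, which the rule for choosing them required. The rule also required a mean of at least 10 CPM in the higher group.

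Most S phase genes fell as well. Of 43 genes, 28 fell and none rose, and all 43 had a log2 fold change below 0, with a median of -1.89. The summed level of the list was 2471, 2643 and 2947 CPM at P5 and 854, 1083 and 952 CPM at P13. Here the groups were apart by more than the spread within either. Rrm2, the inducible subunit of the enzyme that makes deoxynucleotides, was at 101, 91.6 and 144 CPM at P5 and at 20.6, 22 and 14 CPM at P13 (log2 fold change -2.58, standard error 0.35, edgeR adjusted p = 0.00049). Rad51ap1, a protein of DNA repair by recombination, was at 39.7, 39.3 and 33.2 CPM at P5 and at 0.849, 4.01 and 3.63 CPM at P13 (log2 fold change -3.73, standard error 0.56, edgeR adjusted p = 0.00113). Mcm5, a subunit of the replicative helicase, was at 116, 142 and 148 CPM at P5 and at 14.6, 48.4 and 44.3 CPM at P13 (log2 fold change -1.92, standard error 0.43, edgeR adjusted p = 0.0175). The 3 genes were lower in every P13 library. Pcna, the sliding clamp of the replication fork, was at 87.4, 125 and 133 CPM at P5 and at 38.3, 54.1 and 47.3 CPM at P13 (log2 fold change -1.31, standard error 0.27, edgeR adjusted p = 0.00989). Among the other falls in this list were those of E2f8 (log2 fold change -4.45, edgeR adjusted p = 0.0165), a repressor of the E2F family, of Cenpu (log2 fold change -4.14, edgeR adjusted p = 0.0443), a kinetochore protein whose exons overlap Primpol on the other strand over 26.7% of their length, and of Cdc6 (log2 fold change -3.51, edgeR adjusted p = 0.019), which licenses replication origins. The calls of Mcm5 (without P5 library 3 or P13 library 1, edgeR adjusted p up to 0.0626), Pcna (without P13 library 1, edgeR adjusted p up to 0.0564), E2f8 (without P5 library 3 or P13 library 1 or 3, edgeR adjusted p up to 0.0804), Cenpu (without P5 library 1, 2 or 3 or P13 library 1 or 2, edgeR adjusted p up to 0.157) and Cdc6 (without P5 library 3 or P13 library 2, edgeR adjusted p up to 0.058) did not hold with 1 library left out. Those of Mcm5, E2f8 and Cenpu ended without both libraries 1. The list count was 14 without P5 library 3, 14 without P13 library 1, 16 without P13 library 3, 14 without both libraries 1 and 8 when the 6 sham libraries were fitted alone. Both phase lists together held 97 genes, of which 66 fell, 31 were not called and 96 were below 0.

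Of 23 further cyclins, cyclin-dependent kinases and E2F factors, 6 fell and none rose, with a median of -0.91. Ccna2, the cyclin of S phase and early mitosis, was at 118, 105 and 172 CPM at P5 and at 8.34, 20.6 and 9.57 CPM at P13 (log2 fold change -3.37, standard error 0.47, edgeR adjusted p = 0.000616). Foxm1, a transcription factor of the mitotic programme, was at 39.6, 50.9 and 45.4 CPM at P5 and at 8.84, 8.41 and 3.68 CPM at P13 (log2 fold change -2.70, standard error 0.45, edgeR adjusted p = 0.00214). Mybl2, or B-MYB, was at 21.1, 10.4 and 26.6 CPM at P5 and at 1.65, 3.69 and 4.62 CPM at P13 (log2 fold change -2.54, standard error 0.65, edgeR adjusted p = 0.0406). The 3 genes were lower in every P13 library. Ccnd1, the cyclin that answers to growth factors, did not pass the test at 238 ± 51 CPM (SD, n = 3) at P5 and 119 ± 42.7 CPM at P13 (log2 fold change -0.99, edgeR adjusted p = 0.0623). Of 11 cell cycle inhibitors, 1 rose and none fell, against 1.54% of all genes higher. It was Gas1, a membrane protein of growth-arrested cells, at 689.99, 731 and 818 CPM at P5 and at 1665, 1347 and 1204 CPM at P13 (log2 fold change 0.91, standard error 0.19, edgeR adjusted p = 0.0117). Cdkn1a, which encodes p21, was at 85.8 ± 15.4 CPM (SD, n = 3) at P5 and 96.6 ± 27.7 CPM at P13 (log2 fold change 0.17, edgeR adjusted p = 0.857), and Cdkn1c, which encodes p57, was at 193 ± 76.1 CPM (SD, n = 3) at P5 and 185 ± 37.3 CPM at P13 (log2 fold change -0.06, edgeR adjusted p = 0.965). The ages overlapped for both inhibitors. The calls of Mybl2 (without P5 library 1 or 3 or P13 library 1, 2 or 3, edgeR adjusted p up to 0.154) and Gas1 (without P13 library 1, edgeR adjusted p up to 0.0656) did not hold with 1 library left out. Those of Mybl2 and Gas1 ended without both libraries 1.

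The promoters of the genes that fell were read from RefSeq for the GRCm38.p6 build (250 bases before and 50 after the annotated start) and searched for short elements in which cell cycle promoters are known to be rich. One word searched was CCAAT, which NF-Y binds. The cell cycle genes homology region (CHR), bound by DREAM and B-MYB complexes, was searched as TTTGAA. Its second spelling in the search was TTTAAA. Sites of E2F factors were searched as TTTGGCG. Their second spelling in the search was TTTCGCG. All words were sought on both strands, and words of different kinds can overlap by at most 1 base. Symbols matched 11504 of the 16170 genes tested, with 14706 promoters, 189 of the 249 higher genes, with 248 promoters, and 207 of the 266 lower genes, with 247 promoters. A CCAAT word was in 37.2% of all promoters, 37.5% of those of higher genes and 60.7% of those of lower genes. It was in 80.0% of 35 promoters of the lower G2/M genes, in 81.8% of 22 promoters of the lower S phase genes and in 54.7% of 190 promoters of the lower genes in neither list. Either CHR word was in 19.8% of all promoters, 16.5% for higher genes, 40.1% for lower genes, 74.3% for lower G2/M genes and 27.3% for lower S phase genes. A CCAAT word together with a CHR word was in 7.7% of all promoters and 62.9% of those of lower G2/M genes. Either E2F word was in 3.8% of all promoters, 2.4% for higher genes, 10.9% for lower genes and 27.3% for lower S phase genes. These shares describe letters in the reference and are not evidence of binding, and genes with several annotated starts count once a start.

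The 150 bases before the start are shown 5′ to 3′ for the mitotic genes described above, with every CCAAT, CHR and E2F word in capitals on whichever strand it lies, so that some appear as their reverse complement. Cdk1, Ccnb1, Top2a and Mki67 hold CCAAT and CHR words close together, Ccnb2 holds CCAAT words, and Birc5 holds no word in this window.
Cdk1 (chr10:69352913-69353062, GRCm38.p6, minus strand): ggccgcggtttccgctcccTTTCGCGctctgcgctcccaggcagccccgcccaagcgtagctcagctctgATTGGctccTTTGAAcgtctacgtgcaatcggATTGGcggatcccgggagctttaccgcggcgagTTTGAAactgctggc
Ccnb1 (chr13:100786487-100786636, GRCm38.p6, minus strand): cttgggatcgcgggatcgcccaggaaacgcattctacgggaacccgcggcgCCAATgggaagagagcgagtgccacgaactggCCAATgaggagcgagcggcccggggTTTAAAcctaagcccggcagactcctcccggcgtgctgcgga
Ccnb2 (chr9:70421555-70421704, GRCm38.p6, minus strand): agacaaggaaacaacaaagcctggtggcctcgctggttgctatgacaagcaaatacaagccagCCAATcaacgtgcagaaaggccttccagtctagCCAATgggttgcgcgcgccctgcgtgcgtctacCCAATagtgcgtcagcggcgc
Top2a (chr11:99024190-99024339, GRCm38.p6, minus strand): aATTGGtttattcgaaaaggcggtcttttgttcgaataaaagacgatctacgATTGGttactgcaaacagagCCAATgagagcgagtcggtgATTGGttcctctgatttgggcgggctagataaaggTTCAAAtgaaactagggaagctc
Mki67 (chr7:135716380-135716529, GRCm38.p6, minus strand): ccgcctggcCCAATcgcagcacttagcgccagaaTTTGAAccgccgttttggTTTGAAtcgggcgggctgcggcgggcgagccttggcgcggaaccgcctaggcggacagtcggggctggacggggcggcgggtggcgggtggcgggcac
Birc5 (chr11:117849087-117849236, GRCm38.p6, plus strand): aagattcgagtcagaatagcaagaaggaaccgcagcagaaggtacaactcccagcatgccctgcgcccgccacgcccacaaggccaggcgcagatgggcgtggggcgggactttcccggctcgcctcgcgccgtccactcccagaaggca
Their words can be set against the same window of 3 genes that rose, Hmcn2, Pi16 and Efemp1, which hold no word, 1 CCAAT word and 1 E2F word in this window.
Hmcn2 (chr2:31314182-31314331, GRCm38.p6, plus strand): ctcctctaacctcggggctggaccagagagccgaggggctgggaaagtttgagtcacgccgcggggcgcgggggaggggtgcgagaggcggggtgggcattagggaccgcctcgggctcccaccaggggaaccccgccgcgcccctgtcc
Pi16 (chr17:29318732-29318881, GRCm38.p6, plus strand): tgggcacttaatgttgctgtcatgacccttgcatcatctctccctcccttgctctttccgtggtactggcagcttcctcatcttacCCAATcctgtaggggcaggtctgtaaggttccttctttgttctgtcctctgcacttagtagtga
Efemp1 (chr11:28853055-28853204, GRCm38.p6, plus strand): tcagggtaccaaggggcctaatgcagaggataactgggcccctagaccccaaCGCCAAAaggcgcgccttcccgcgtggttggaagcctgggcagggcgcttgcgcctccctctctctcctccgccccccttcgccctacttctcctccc

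Some genes of fetal growth fell. Of 20 imprinted genes, which are read from 1 parental allele and many of which govern growth before birth, 4 fell, none rose and 18 were below 0, with a median of -1.48. H19, a long non-coding RNA of the Igf2 locus, was at 455, 1172 and 709.7 CPM at P5 and at 73.2, 232 and 196 CPM at P13 (log2 fold change -2.22, standard error 0.46, edgeR adjusted p = 0.0107). Dlk1, a Notch ligand-like protein of immature mesenchyme, was at 776, 756 and 563 CPM at P5 and at 92.9, 202 and 171 CPM at P13 (log2 fold change -2.17, standard error 0.37, edgeR adjusted p = 0.00242). Mest, a hydrolase of growing mesoderm, was at 1183, 1075 and 1435 CPM at P5 and at 370.4, 524 and 440.3 CPM at P13 (log2 fold change -1.47, standard error 0.24, edgeR adjusted p = 0.00177). The P13 libraries were all lower in these 3 abundant transcripts. Nnat, a small membrane protein, was at 7.38, 10.5 and 9.2 CPM at P5 and at 0.749, 0.711 and 0.896 CPM at P13 (log2 fold change -3.51, standard error 0.59, edgeR adjusted p = 0.00242). Igf2, the growth factor beside H19, did not pass the test at 59.8 ± 13.8 CPM (SD, n = 3) at P5 and 41.3 ± 4.28 CPM at P13 (log2 fold change -0.53, edgeR adjusted p = 0.541), and 62.8% of its exon length is shared on the same strand with the gene Gm49394, so that most of its reads may not have been counted. Of 5 oncofetal genes tested, 2 fell. Hmga2, a chromatin architect of fetal and tumour cells, was at 5.02, 1.11 and 1.5 CPM in the P5 libraries and at 0 CPM in all P13 libraries. It had no count at P13 and was at least 50.03-fold lower there against a floor of 3 counts over the group (edgeR adjusted p = 0.00397). Igf2bp3, a binder of fetal messenger RNAs, was at 30.1, 14.1 and 27.8 CPM at P5 and at 4.84, 8.8 and 4.9 CPM at P13 (log2 fold change -1.96, standard error 0.37, edgeR adjusted p = 0.00558), and Igf2bp1 was at 19.8, 1.11 and 6.59 CPM at P5 and at 0, 0.776 and 0.519 CPM at P13 (log2 fold change -4.41, standard error 1.32, edgeR adjusted p = 0.0838). Of 14 genes of the insulin-like growth factor axis, 3 rose and none fell, and all 3 encode binding proteins. Igfbp3, which carries most of the factor in blood, was at 89.8, 72.1 and 67.5 CPM at P5 and at 515, 275 and 359 CPM at P13 (log2 fold change 2.32, standard error 0.52, edgeR adjusted p = 0.0169). Igfbp6 was at 11.4, 57.2 and 34.5 CPM at P5 and at 169, 181 and 149 CPM at P13 (log2 fold change 2.27, standard error 0.43, edgeR adjusted p = 0.00593). Igfbp7, an abundant matrix-bound relative, was at 2276, 2458 and 2044 CPM at P5 and at 3856, 4138 and 4241 CPM at P13 (log2 fold change 0.85, standard error 0.15, edgeR adjusted p = 0.00369). The ages were apart for each of the binding proteins. Igf1 itself was at 73.6 ± 23.7 CPM (SD, n = 3) at P5 and 127 ± 60.6 CPM at P13 (log2 fold change 0.79, edgeR adjusted p = 0.352), and its groups overlapped. The call of Igfbp3 (without P5 library 2 or 3 or P13 library 1, edgeR adjusted p up to 0.0721) did not hold with 1 library left out. Those of Igf2bp3 and Igfbp3 ended without both libraries 1. Without both libraries 1, 5 imprinted genes and 2 binding proteins were called, and 2 and 1 in the sham libraries alone.

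The 12 largest rises were ranked among called genes without overlap and with a mean of at least 10 CPM at P13. They were spread over matrix, secreted, metabolic and membrane proteins. Hmcn2, or hemicentin 2, a very large matrix protein related to fibulins, had one of the 3 smallest p-values of all genes. It was at 2.28, 3.23 and 2.35 CPM at P5 and at 313, 104 and 98.9 CPM at P13 (log2 fold change 6.03, standard error 0.56, edgeR adjusted p = 2.55e-05), on chr2:31314415-31460738 of GRCm38 on the plus strand. Pcolce2, which speeds the removal of procollagen's C-terminal propeptide, was at 23.8, 38.1 and 19.6 CPM at P5 and at 302, 199 and 239.8 CPM at P13 (log2 fold change 3.18, standard error 0.30, edgeR adjusted p = 2.55e-05), on chr9:95637601-95698096 of GRCm38 on the plus strand. Crispld2, a secreted protein of mesenchyme, was at 102, 145 and 89 CPM at P5 and at 642, 554 and 465 CPM at P13 (log2 fold change 2.30, standard error 0.21, edgeR adjusted p = 2.55e-05), on chr8:119992438-120052793 of GRCm38 on the plus strand. These 3 genes shared the smallest adjusted p, their groups were wide apart and each call held with any library left out. Of the 3, Hmcn2 alone was among the 12 largest rises. The matrix and the acute phase gave further members of the 12. Efemp1, or fibulin 3, which is found beside elastic fibres, was at 0, 0.0461 and 3.52 CPM at P5 and at 64.2, 37.6 and 39.5 CPM at P13 (log2 fold change 5.37, standard error 1.28, edgeR adjusted p = 0.0272). Podn, or podocan, a small leucine-rich proteoglycan, was at 10.5, 4.1 and 1.31 CPM at P5 and at 100.5, 65.8 and 37.1 CPM at P13 (log2 fold change 3.67, standard error 0.60, edgeR adjusted p = 0.00201). Serpina3n, a secreted protease inhibitor of the acute phase, was at 2.83, 18.8 and 2.02 CPM at P5 and at 333, 35.7 and 83.4 CPM at P13 (log2 fold change 4.24, standard error 1.10, edgeR adjusted p = 0.0438). P13 library 1 was well above the others for this gene. The ages did not overlap for any of the 3, which the ranking required.

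Among the same 12 were genes of enzymes and 1 gene model. Gsta3, a glutathione transferase, was at 0.139, 0.968 and 0.131 CPM at P5 and at 34.3, 17 and 9.71 CPM at P13 (log2 fold change 5.57, standard error 1.46, edgeR adjusted p = 0.0455). Aox1, or aldehyde oxidase 1, was at 0, 1.71 and 0.0653 CPM at P5 and at 13, 10.2 and 9.85 CPM at P13 (log2 fold change 4.18, standard error 1.05, edgeR adjusted p = 0.0364). Cmah, the enzyme that hydroxylates sialic acid, was at 0, 1.01 and 3.0 CPM at P5 and at 63.5, 17.3 and 29.7 CPM at P13 (log2 fold change 4.81, standard error 1.01, edgeR adjusted p = 0.0121). All 3 enzymes were low at P5 and did not overlap. Duoxa1, a maturation factor of the dual oxidases, was at 0, 0.0461 and 2.15 CPM at P5 and at 32.7, 39.9 and 39.1 CPM at P13 (log2 fold change 5.74, standard error 1.13, edgeR adjusted p = 0.00805), and 17.1% of its exon length overlaps Duoxa2 on the other strand. Gm4956, a gene model without a known role, was at 0, 0 and 0.392 CPM at P5 and at 20.9, 10.9 and 6.93 CPM at P13 (log2 fold change 6.69, standard error 1.32, edgeR adjusted p = 0.0102). The calls of Efemp1 (without P5 library 1 or 2 or P13 library 1, edgeR adjusted p up to 0.073), Serpina3n (without P5 library 1 or 3 or P13 library 1 or 3, edgeR adjusted p up to 0.18), Gsta3 (without P5 library 1 or 3 or P13 library 1, 2 or 3, edgeR adjusted p up to 0.14), Aox1 (without P5 library 3 or P13 library 1, 2 or 3, edgeR adjusted p up to 0.105) and Cmah (without P5 library 2, edgeR adjusted p up to 0.0517) did not hold with 1 library left out. Those of Efemp1, Serpina3n, Gsta3, Aox1 and Gm4956 ended without both libraries 1. Of the 12 largest rises the remaining 3, Ly6a, Ly6c1 and Pi16, are markers of fibroblast identity.

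Many genes that mark fibroblasts of several organs rose. Of 24 genes of the list of universal fibroblast and identity markers, 12 rose, none fell and 23 were above 0, with a median of 1.32, against 1.54% of all genes higher. The summed level was 10785, 15515 and 12487 CPM at P5 and 38657, 35033 and 35508 CPM at P13. The lowest P13 library lay far above the highest P5 library. Gsn, given below, held a large part of this rise. Pi16, a secreted protein that marks universal adventitial fibroblasts, was at 40.8, 127 and 72.6 CPM at P5 and at 1504, 1279 and 1233 CPM at P13 (log2 fold change 4.06, standard error 0.43, edgeR adjusted p = 9.56e-05). Ly6a, or Sca-1, a membrane marker of mesenchymal progenitors, was at 5.43, 33.6 and 32.2 CPM at P5 and at 725, 587 and 514 CPM at P13 (log2 fold change 4.68, standard error 0.81, edgeR adjusted p = 0.00315). Ly6c1, of the same family, was at 5.94, 17.8 and 24.2 CPM at P5 and at 231, 235 and 170.5 CPM at P13 (log2 fold change 3.73, standard error 0.92, edgeR adjusted p = 0.0342). P5 library 1 was the lowest of the 6 for all 3 markers. Of the 50-base stretches of Ly6c1, 32.8% also occur in other genes, mostly Ly6c2, and of those of Ly6a 19% do, mostly in Ly6c1. Ackr3, a scavenging receptor of Cxcl12, was at 48.1, 154 and 123 CPM at P5 and at 678, 741 and 503 CPM at P13 (log2 fold change 2.56, standard error 0.47, edgeR adjusted p = 0.005). Gsn, or gelsolin, which severs actin filaments, was at 2989, 3961 and 2744 CPM at P5 and at 16685, 13628 and 15255 CPM at P13 (log2 fold change 2.23, standard error 0.24, edgeR adjusted p = 9.56e-05). Both were higher in every P13 library. Cd34, a sialomucin of progenitor and stromal cells, was at 1242, 2080.04 and 1868 CPM at P5 and at 3509, 3589 and 3396 CPM at P13 (log2 fold change 1.02, standard error 0.21, edgeR adjusted p = 0.0123). Dpep1, a membrane dipeptidase, was at 69.4, 243 and 136 CPM at P5 and at 726, 643 and 509 CPM at P13 (log2 fold change 2.07, standard error 0.43, edgeR adjusted p = 0.0105). The ages did not overlap for these either. Dpt, or dermatopontin, another marker of universal fibroblasts, was at 1278 ± 364 CPM (SD, n = 3) at P5 and 1560.1 ± 85.2 CPM at P13 (log2 fold change 0.29, edgeR adjusted p = 0.564), and the ages overlapped. Col15a1, which marks a second such population, was at 254 ± 111 CPM (SD, n = 3) at P5 and 509 ± 108 CPM at P13 (log2 fold change 1.0, edgeR adjusted p = 0.105). The calls of Ly6c1 (without any 1 library, edgeR adjusted p up to 0.102) and Dpep1 (without P5 library 3, edgeR adjusted p up to 0.0526) did not hold with 1 library left out. Those of Ly6c1, Cd34 and Dpep1 ended without both libraries 1. Without both libraries 1, 8 of the 24 were called higher.

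The elastic fibre list was the matrix list with the largest share of rises. Of 17 genes, 8 rose and none fell, with a median of 1.10. Efemp1, given above, had the largest rise, followed by Ltbp1, Emilin2 and Fbln2 among those described here. Emilin2, an elastin-associated glycoprotein, was at 55.1, 74.4 and 107 CPM at P5 and at 291, 301 and 262 CPM at P13 (log2 fold change 1.86, standard error 0.26, edgeR adjusted p = 0.000702). Ltbp1, which stores latent TGF-beta on microfibrils, was at 71.7, 12.5 and 32.8 CPM at P5 and at 180.2, 104 and 149 CPM at P13 (log2 fold change 1.89, standard error 0.47, edgeR adjusted p = 0.036). Fbln2, or fibulin 2, was at 645, 648 and 839 CPM at P5 and at 2619, 1891 and 1353 CPM at P13 (log2 fold change 1.46, standard error 0.25, edgeR adjusted p = 0.00288). The P13 libraries were above the P5 libraries throughout. The core components did not pass the test. Eln, elastin itself, was at 891 ± 249.7 CPM (SD, n = 3) at P5 and 2145 ± 475 CPM at P13 (log2 fold change 1.27, edgeR adjusted p = 0.0668), Fbn1, the main fibrillin, was at 977 ± 665 CPM (SD, n = 3) at P5 and 1665 ± 1075 CPM at P13 (log2 fold change 0.77, edgeR adjusted p = 0.502), and Fbn2, the fibrillin of fetal tissue, was at 142 ± 120.4 CPM (SD, n = 3) at P5 and 94.5 ± 69.9 CPM at P13 (log2 fold change -0.59, edgeR adjusted p = 0.695). Eln was higher in every P13 library, and the fibrillins overlapped. The calls of Efemp1 (without P5 library 1 or 2 or P13 library 1, edgeR adjusted p up to 0.073) and Ltbp1 (without P5 library 2 or 3 or P13 library 1 or 3, edgeR adjusted p up to 0.119) did not hold with 1 library left out. That of Efemp1 ended without both libraries 1. The list count was 5 without P5 library 1, 4 without P5 library 3, 5 without P13 library 1, 5 without P13 library 3, 4 without both libraries 1 and 1 when the 6 sham libraries were fitted alone.

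Few collagens were called. Over all genes tested, 1.54% rose and 1.65% fell. Of 11 fibrillar collagens, 1 rose and 2 fell, with a median of 0.26, and of 29 other collagens none was called by edgeR, with a median of 0.20. Of these 29, 7 were higher and 3 lower at an unadjusted edgeR p under 0.05, DESeq2 called 4 higher and 3 lower, limma voom called 3 higher, and edgeR called 3 higher without P5 library 1. Over all genes, 2633 of 16170 had such an unadjusted p, DESeq2 called 1285 and limma voom 707. Col1a1, the most used chain of type I collagen, was at 10274, 5757 and 4339.6 CPM at P5 and at 8812, 5856 and 9089 CPM at P13 (log2 fold change 0.22, standard error 0.35, edgeR adjusted p = 0.834). Col3a1, of type III collagen, was at 30396, 22921 and 24595 CPM at P5 and at 46931, 34502 and 40631 CPM at P13 (log2 fold change 0.65, standard error 0.23, edgeR adjusted p = 0.156). The ages overlapped for Col1a1, and Col3a1 was higher in every P13 library without passing the test. Col5a3, a chain of the type V collagen that nucleates fibrils, rose and was at 199.5, 171 and 219 CPM at P5 and at 815, 431 and 568 CPM at P13 (log2 fold change 1.62, standard error 0.29, edgeR adjusted p = 0.0041). Col11a1, the cartilage counterpart of that chain family, fell and was at 85.4, 32 and 36.1 CPM at P5 and at 18.9, 5.24 and 7.36 CPM at P13 (log2 fold change -2.28, standard error 0.52, edgeR adjusted p = 0.0209). Col24a1, a fibrillar collagen of developing tissue, fell as well and was at 34.3, 13.2 and 12.7 CPM at P5 and at 2.1, 1.49 and 1.04 CPM at P13 (log2 fold change -3.70, standard error 0.48, edgeR adjusted p = 0.000375). Both of the falling chains had P5 library 1 as the highest. Col4a1, of basement membranes, was at 2822 ± 1582 CPM (SD, n = 3) at P5 and 2967 ± 1333 CPM at P13 (log2 fold change 0.07, edgeR adjusted p = 0.968), and Col6a1, of microfilaments around cells, was at 2905 ± 701 CPM (SD, n = 3) at P5 and 4472 ± 633 CPM at P13 (log2 fold change 0.62, edgeR adjusted p = 0.116). The call of Col11a1 (without P5 library 1 or P13 library 2 or 3, edgeR adjusted p up to 0.0999) did not hold with 1 library left out. That of Col5a3 ended without both libraries 1.

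Of 25 genes of collagen processing and crosslinking, 4 rose and none fell, with a median of 0.29. Beside Pcolce2 these were Adamts2, P4ha2 and Loxl1. Adamts2, which removes the N-terminal propeptide of procollagen, was at 893, 769 and 660.3 CPM at P5 and at 1840.4, 1473 and 1482 CPM at P13 (log2 fold change 1.05, standard error 0.20, edgeR adjusted p = 0.00712). P4ha2, a prolyl hydroxylase, was at 37.8, 78.8 and 86.4 CPM at P5 and at 140.4, 181 and 193 CPM at P13 (log2 fold change 1.34, standard error 0.31, edgeR adjusted p = 0.0219). Loxl1, a lysyl oxidase that acts on elastin, was at 517, 611 and 514 CPM at P5 and at 979, 1001 and 1037 CPM at P13 (log2 fold change 0.88, standard error 0.18, edgeR adjusted p = 0.00919). All 3 were higher in every P13 library. Lox, the lysyl oxidase of fibrillar collagen, was at 136 ± 62.7 CPM (SD, n = 3) at P5 and 158 ± 105 CPM at P13 (log2 fold change 0.22, edgeR adjusted p = 0.907) and overlapped. The calls of P4ha2 (without P5 library 1 or P13 library 2 or 3, edgeR adjusted p up to 0.0798) and Loxl1 (without P5 library 3, edgeR adjusted p up to 0.0504) did not hold with 1 library left out. Those of P4ha2 and Loxl1 ended without both libraries 1.

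Of 39 matricellular and other matrix glycoproteins, 8 rose and 1 fell, with a median of 0.61. Vtn, or vitronectin, an adhesive protein, was at 21.2, 18.4 and 12 CPM at P5 and at 90.2, 116 and 112 CPM at P13 (log2 fold change 2.62, standard error 0.57, edgeR adjusted p = 0.015). Mgp, matrix Gla protein, which keeps soft tissue from calcifying, was at 392, 689 and 303 CPM at P5 and at 1688, 1607 and 1213 CPM at P13 (log2 fold change 1.70, standard error 0.32, edgeR adjusted p = 0.00568). Tnc, tenascin C, an anti-adhesive protein of developing and injured tissue, was the one that fell. It was at 343, 99.2 and 118 CPM at P5 and at 48, 50.2 and 39.2 CPM at P13 (log2 fold change -2.03, standard error 0.49, edgeR adjusted p = 0.0278). Postn, periostin, which rises in activated fibroblasts, was at 17359, 6223 and 12591 CPM at P5 and at 6695, 2945 and 4350.1 CPM at P13 (log2 fold change -1.37, standard error 0.44, edgeR adjusted p = 0.106), and P5 library 2 overlapped P13 library 1. Fn1, fibronectin, was at 1747 ± 1509 CPM (SD, n = 3) at P5 and 1188 ± 546 CPM at P13 (log2 fold change -0.56, edgeR adjusted p = 0.663). In 29 proteoglycans and hyaluronan genes, 2 rose and none fell, with a median of 0.23. They were Podn and Prelp, a basement membrane anchor, at 407, 318 and 266 CPM at P5 and at 787, 647 and 608 CPM at P13 (log2 fold change 1.04, standard error 0.21, edgeR adjusted p = 0.00905). Dcn, decorin, was higher in every P13 library without passing the test, at 8285 ± 1111 CPM (SD, n = 3) at P5 and 15349 ± 3040.2 CPM at P13 (log2 fold change 0.89, edgeR adjusted p = 0.0659). Vcan, versican of provisional matrix, was at 277 ± 275 CPM (SD, n = 3) at P5 and 183 ± 168 CPM at P13 (log2 fold change -0.60, edgeR adjusted p = 0.771), and Lum, lumican, was at 3029 ± 1050.1 CPM (SD, n = 3) at P5 and 4111 ± 407 CPM at P13 (log2 fold change 0.44, edgeR adjusted p = 0.446). All 10 laminins tested were above 0, with a median of 1.16, but 1 alone was called, Lamb2 at 267, 143 and 143 CPM at P5 and at 446, 363 and 354 CPM at P13 (log2 fold change 1.07, standard error 0.28, edgeR adjusted p = 0.0476). The calls of Vtn (without P5 library 3, edgeR adjusted p up to 0.0734), Tnc (without P5 library 1 or P13 library 1, 2 or 3, edgeR adjusted p up to 0.14), Prelp (without P5 library 3, edgeR adjusted p up to 0.0554) and Lamb2 (without P5 library 2 or 3 or P13 library 1, 2 or 3, edgeR adjusted p up to 0.172) did not hold with 1 library left out. Those of Mgp and Tnc ended without both libraries 1. The matricellular count of rises was 4 without P5 library 3, 5 without P13 library 3 5 without both libraries 1 and 4 in the sham libraries alone.

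Of 31 matrix proteases and their inhibitors, 6 rose and none fell, with a median of 0.43. Mmp2, gelatinase A, was at 2274, 1921 and 1663 CPM at P5 and at 4366, 4055 and 3343 CPM at P13 (log2 fold change 1.01, standard error 0.18, edgeR adjusted p = 0.0035), and its inhibitor Timp2 was at 1350.4, 1313 and 1317 CPM at P5 and at 3995, 3467 and 3232 CPM at P13 (log2 fold change 1.43, standard error 0.16, edgeR adjusted p = 0.000171). Both were higher in every P13 library. Mmp3, stromelysin 1, had no count at P5 and was at 0 CPM in all P5 libraries and at 17.4, 4.85 and 3.25 CPM in the P13 libraries, at least 169.7-fold higher against a floor of 3 counts over the P5 group (edgeR adjusted p = 0.0311). Adamtsl2, a microfibril-bound protein that tunes TGF-beta, was at 44.5, 49.5 and 40.4 CPM at P5 and at 244, 235 and 119 CPM at P13 (log2 fold change 2.15, standard error 0.43, edgeR adjusted p = 0.00876). Adamtsl4, which promotes fibrillin assembly, was at 79.5, 88.1 and 54.4 CPM at P5 and at 217, 166 and 194 CPM at P13 (log2 fold change 1.38, standard error 0.22, edgeR adjusted p = 0.00184). The call of Mmp3 (without P5 library 1, 2 or 3 or P13 library 1, edgeR adjusted p up to 0.0857) did not hold with 1 library left out. Those of Mmp3 and Adamtsl2 ended without both libraries 1. Without both libraries 1, 3 were called higher, and 2 in the sham libraries alone. In all, the matrix lists held 191 tested genes, of which 30 rose, 3 fell and 158 were not called, with a median of 0.41.

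Some genes of complement, antigen presentation and coagulation rose. Of 18 complement genes, 4 rose, none fell and 17 were above 0, with a median of 1.94. The summed level of the list was 895, 912 and 711 CPM at P5 and 4723, 3043 and 3429 CPM at P13, without overlap. Serping1, given next, made up most of this sum in every sham library. Of the 4, 3 are described. Serping1, the inhibitor of C1, was at 603, 646 and 463 CPM at P5 and at 2595, 2254 and 2544 CPM at P13 (log2 fold change 2.11, standard error 0.27, edgeR adjusted p = 0.000375). C1ra, a protease of the C1 complex, was at 19.6, 30.8 and 15.7 CPM at P5 and at 128, 98.4 and 113 CPM at P13 (log2 fold change 2.36, standard error 0.48, edgeR adjusted p = 0.00927). The ages did not overlap for either. Cd55, decay-accelerating factor, was at 83, 73.9 and 86.8 CPM at P5 and at 329.9, 186 and 191 CPM at P13 (log2 fold change 1.54, standard error 0.33, edgeR adjusted p = 0.0141). Of the 50-base stretches of C1ra, 50.8% also occur in other genes, mostly C1rb, and its value is uncertain for that reason. The component C3 was at 9.71, 34 and 0.914 CPM at P5 and at 135, 34.9 and 51.9 CPM at P13 (log2 fold change 2.31, standard error 1.15, edgeR adjusted p = 0.33). Its highest P5 library and its lowest P13 library nearly met. C4b was at 11.4, 8.25 and 4.5 CPM at P5 and at 47.2, 23.8 and 38.1 CPM at P13 (log2 fold change 2.17, standard error 0.86, edgeR adjusted p = 0.213), with all P13 libraries above P5, and C7 was at 4.37, 0.277 and 0.979 CPM at P5 and at 44.7, 9.7 and 8.68 CPM at P13 (log2 fold change 3.48, standard error 1.12, edgeR adjusted p = 0.11). None of these 3 passed the test. The markers of macrophages, which also make complement, were summed at 8.41, 109 and 215 CPM at P5 and 109.7, 415 and 331 CPM at P13. None of the 15 was called by edgeR, DESeq2 or limma voom, and 2 were higher at an unadjusted edgeR p under 0.05. Over all genes, 2633 of 16170 had such a p in either direction. All 15 markers were above 0 with a median of 1.41, and 11 of them had no read in P5 library 1. Their part in the complement values was not tested. The calls of C1ra (without P5 library 3, edgeR adjusted p up to 0.0538) and Cd55 (without P5 library 2 or P13 library 1, edgeR adjusted p up to 0.079) did not hold with 1 library left out. Those of C1ra and Cd55 ended without both libraries 1. The complement count was 2 without P5 library 3, 2 without P13 library 1 2 without both libraries 1 and 2 in the sham libraries alone.

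Of 25 chemokines and cytokines, 2 rose and none fell, against 1.54% of all genes higher, with a median of 0.75. They were Cxcl12 and its scavenger Ackr3, given above. Cxcl12, which retains blood progenitors in their niche, was at 34.3, 75 and 61.7 CPM at P5 and at 202, 217 and 214 CPM at P13 (log2 fold change 1.89, standard error 0.35, edgeR adjusted p = 0.00491). Ligand and receptor were both higher in every P13 library. Ccl11, an eosinophil attractant, was at 3.39 ± 1.77 CPM (SD, n = 3) at P5 and 5.91 ± 1.88 CPM at P13 (log2 fold change 0.80, edgeR adjusted p = 0.66), and Il33, an alarmin of stromal cells, was at 27.1 ± 7.73 CPM (SD, n = 3) at P5 and 70.7 ± 18.4 CPM at P13 (log2 fold change 1.38, edgeR adjusted p = 0.109). Of 30 interferon-stimulated and MHC class I genes, 3 rose and none fell, with a median of 0.59, and all 3 belong to antigen presentation. H2-K1, a class I heavy chain, was at 35.8, 45.4 and 34.1 CPM at P5 and at 130.2, 173 and 136 CPM at P13 (log2 fold change 1.93, standard error 0.34, edgeR adjusted p = 0.00339). H2-D1, another, was at 134, 119 and 144 CPM at P5 and at 356, 437 and 431 CPM at P13 (log2 fold change 1.63, standard error 0.32, edgeR adjusted p = 0.00718). Tapbp, or tapasin, which loads peptide onto them, was at 53.1, 64.5 and 88.9 CPM at P5 and at 279.9, 274 and 266 CPM at P13 (log2 fold change 1.99, standard error 0.32, edgeR adjusted p = 0.00187). The 3 genes were higher in every P13 library. B2m, their light chain, was at 479.7 ± 25.4 CPM (SD, n = 3) at P5 and 558 ± 77.4 CPM at P13 (log2 fold change 0.22, edgeR adjusted p = 0.831). Tapbp shares 24.9% of its exon length with Gm19412 on the other strand, and 12.8% of the 50-base stretches of H2-D1 also occur in other genes. Of 16 genes of coagulation and fibrinolysis, 2 rose and none fell, with a median of 0.32. Thbd, thrombomodulin, which turns thrombin against clotting, was at 47.4, 48.1 and 43.5 CPM at P5 and at 284, 153 and 165 CPM at P13 (log2 fold change 2.12, standard error 0.27, edgeR adjusted p = 0.000375). F3, tissue factor, which starts clotting, was at 8.22, 10.7 and 12.1 CPM at P5 and at 49.4, 38 and 46.6 CPM at P13 (log2 fold change 2.11, standard error 0.31, edgeR adjusted p = 0.000784). Both were higher in every P13 library. Plat, the tissue plasminogen activator, was at 408 ± 71.1 CPM (SD, n = 3) at P5 and 604 ± 60.9 CPM at P13 (log2 fold change 0.57, edgeR adjusted p = 0.164), and Tfpi, the inhibitor of tissue factor, was at 143 ± 31 CPM (SD, n = 3) at P5 and 125 ± 42.6 CPM at P13 (log2 fold change -0.20, edgeR adjusted p = 0.836). Each of the calls just given held with any 1 library left out.

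Few genes of growth factor pathways were called. Over all genes tested, 1.54% rose and 1.65% fell. Of 25 genes of TGF-beta and BMP signalling, 3 rose and 1 fell, with a median of 0.27. Beside Ltbp1 these were Tgfbr2, Bmp6 and, as the one that fell, Smad6. Tgfbr2, the type II receptor, was at 302, 219.8 and 247 CPM at P5 and at 815, 519 and 479 CPM at P13 (log2 fold change 1.24, standard error 0.30, edgeR adjusted p = 0.0282). Bmp6, a ligand, was at 74.9, 96.2 and 84.1 CPM at P5 and at 186, 142 and 144 CPM at P13 (log2 fold change 0.89, standard error 0.21, edgeR adjusted p = 0.0298). Smad6, an inhibitor of BMP signals, was at 68.7, 42.7 and 45.1 CPM at P5 and at 11.7, 16.2 and 16 CPM at P13 (log2 fold change -1.83, standard error 0.34, edgeR adjusted p = 0.00471). The ages did not overlap for the 3. The ligand Tgfb2 was at 104 ± 60.8 CPM (SD, n = 3) at P5 and 74 ± 28.5 CPM at P13 (log2 fold change -0.49, edgeR adjusted p = 0.613), and Bmp4 was at 41.4 ± 7.6 CPM (SD, n = 3) at P5 and 78.4 ± 20.3 CPM at P13 (log2 fold change 0.92, edgeR adjusted p = 0.0705). Of 22 Wnt genes, 2 rose and none fell, with a median of 0.32. They were the ligands Wnt11 and Wnt9a. Wnt11 was at 4.23, 6.96 and 6.33 CPM at P5 and at 38.3, 45.7 and 40.3 CPM at P13 (log2 fold change 2.83, standard error 0.37, edgeR adjusted p = 0.000441). Wnt9a was at 32.7, 21 and 31.8 CPM at P5 and at 84.4, 66 and 53.7 CPM at P13 (log2 fold change 1.26, standard error 0.32, edgeR adjusted p = 0.0391). The secreted antagonist Sfrp1 was at 269 ± 88.6 CPM (SD, n = 3) at P5 and 345 ± 116 CPM at P13 (log2 fold change 0.36, edgeR adjusted p = 0.668). Of 22 genes of FGF and PDGF signalling, 1 rose and 1 fell, with a median of 0.58. Fgf18, a ligand, was at 21.1, 14.8 and 17.6 CPM at P5 and at 44.5, 40.4 and 51.1 CPM at P13 (log2 fold change 1.34, standard error 0.33, edgeR adjusted p = 0.0335). Fgfr2, a receptor, was at 36.2, 8.95 and 10.5 CPM at P5 and at 3.35, 2.2 and 0.66 CPM at P13 (log2 fold change -3.16, standard error 0.75, edgeR adjusted p = 0.0261), highest in P5 library 1. The calls of Ltbp1 (without P5 library 2 or 3 or P13 library 1 or 3, edgeR adjusted p up to 0.119), Tgfbr2 (without P5 library 2 or 3 or P13 library 1, edgeR adjusted p up to 0.136), Bmp6 (without P5 library 1 or 3 or P13 library 1, 2 or 3, edgeR adjusted p up to 0.13), Wnt9a (without any 1 library, edgeR adjusted p up to 0.151), Fgf18 (without P5 library 2 or 3 or P13 library 1, 2 or 3, edgeR adjusted p up to 0.108) and Fgfr2 (without P5 library 1 or P13 library 2 or 3, edgeR adjusted p up to 0.114) did not hold with 1 library left out. Those of Tgfbr2, Bmp6, Smad6, Wnt9a, Fgf18 and Fgfr2 ended without both libraries 1.

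Of 33 axon guidance, neurotrophin and vascular factors, 3 rose and none fell, against 1.54% of all genes higher, with a median of 0.23. Ntn4, netrin 4 of basement membranes, was at 4.09, 11.1 and 11.2 CPM at P5 and at 104, 65.5 and 59.2 CPM at P13 (log2 fold change 3.12, standard error 0.38, edgeR adjusted p = 0.000242). Angptl7, a secreted angiopoietin-like protein, was at 4.83, 3.18 and 6.79 CPM at P5 and at 34.3, 22.1 and 14.5 CPM at P13 (log2 fold change 2.26, standard error 0.60, edgeR adjusted p = 0.0468). Serpinf1, pigment epithelium-derived factor, which restrains vessel growth, was at 261, 412 and 311 CPM at P5 and at 819, 1049.9 and 1197 CPM at P13 (log2 fold change 1.64, standard error 0.22, edgeR adjusted p = 0.000453). The 3 factors were higher in every P13 library. Vegfa, a growth factor of vessels, was at 52.5 ± 27.6 CPM (SD, n = 3) at P5 and 63.8 ± 26.8 CPM at P13 (log2 fold change 0.28, edgeR adjusted p = 0.795). The call of Angptl7 (without any 1 library, edgeR adjusted p up to 0.162) did not hold with 1 library left out. That of Angptl7 ended without both libraries 1.

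Of 28 antioxidant genes, 4 rose and none fell, against 1.54% of all genes higher, with a median of 0.22. Beside Gsta3 they were Sod3, Gstt1 and Gstm1. Sod3, the extracellular superoxide dismutase, was at 99.8, 117 and 102 CPM at P5 and at 419.6, 412 and 463 CPM at P13 (log2 fold change 2.02, standard error 0.29, edgeR adjusted p = 0.000784). Gstt1, a glutathione transferase, was at 9.47, 29.6 and 14 CPM at P5 and at 57.3, 85.6 and 71.9 CPM at P13 (log2 fold change 2.02, standard error 0.48, edgeR adjusted p = 0.0269). Gstm1, of another class of the same enzymes, was at 191, 190.03 and 176 CPM at P5 and at 456, 411 and 357 CPM at P13 (log2 fold change 1.14, standard error 0.20, edgeR adjusted p = 0.00354). The 4 enzymes were all higher without overlap. Gpx3, the secreted glutathione peroxidase, was at 1164 ± 472 CPM (SD, n = 3) at P5 and 2198 ± 351 CPM at P13 (log2 fold change 0.92, edgeR adjusted p = 0.126). Of 30 genes of retinoid, lipid and fatty acid handling, 3 rose and 1 fell, with a median of 0.43. Angptl4, an inhibitor of lipoprotein lipase, was at 127, 135 and 148 CPM at P5 and at 405, 362 and 483 CPM at P13 (log2 fold change 1.61, standard error 0.20, edgeR adjusted p = 0.000324). Aldh1a1, which makes retinoic acid, was at 55, 125 and 98 CPM at P5 and at 315, 231 and 159 CPM at P13 (log2 fold change 1.34, standard error 0.31, edgeR adjusted p = 0.0252). The P13 libraries were higher throughout for both. Cebpd, a transcription factor of early fat cell differentiation, was at 377, 277 and 123 CPM at P5 and at 1095, 664 and 712 CPM at P13 (log2 fold change 1.67, standard error 0.44, edgeR adjusted p = 0.0447). Fabp5, a fatty acid carrier, fell and was at 152, 279.6 and 262 CPM at P5 and at 90.3, 114 and 87.7 CPM at P13 (log2 fold change -1.25, standard error 0.25, edgeR adjusted p = 0.00952). The calls of Gstt1 (without P5 library 1 or 3 or P13 library 2 or 3, edgeR adjusted p up to 0.104), Gsta3 (without P5 library 1 or 3 or P13 library 1, 2 or 3, edgeR adjusted p up to 0.14), Aldh1a1 (without P5 library 1 or 3 or P13 library 1 or 2, edgeR adjusted p up to 0.12), Cebpd (without P5 library 2 or 3 or P13 library 1, 2 or 3, edgeR adjusted p up to 0.154) and Fabp5 (without P13 library 3, edgeR adjusted p up to 0.0553) did not hold with 1 library left out. Those of Gstt1, Gsta3, Aldh1a1 and Cebpd ended without both libraries 1.

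The next lists held few calls, where 1.54% of all genes rose and 1.65% fell. Of 20 genes of cholesterol synthesis and uptake, 1 fell and 17 were below 0, with a median of -0.52. It was Fdft1, squalene synthase, at 9.1, 20.3 and 19.6 CPM at P5 and at 3.05, 4.72 and 5.56 CPM at P13 (log2 fold change -1.88, standard error 0.47, edgeR adjusted p = 0.0356). Of 26 genes of glycolysis and hypoxia, 1 rose, Pfkp, the platelet-type phosphofructokinase, at 104, 79.1 and 89.6 CPM at P5 and at 158, 162 and 169 CPM at P13 (log2 fold change 0.84, standard error 0.20, edgeR adjusted p = 0.0243), and the median was 0.05. None of 8 genes encoded in mitochondria was called by edgeR, DESeq2 or limma voom or had an unadjusted p under 0.05 (median -0.17). All 18 genes of glucocorticoid and thyroid response were above 0, with a median of 1.10, and 1 was called, Errfi1, a feedback inhibitor of the EGF receptor, at 104, 62.3 and 40.4 CPM at P5 and at 349.96, 184 and 154 CPM at P13 (log2 fold change 1.73, standard error 0.44, edgeR adjusted p = 0.0406). The count of this list was 3 without P5 library 1, 4 by DESeq2, 3 by limma voom and 8 without a filter on low counts. Klf9, a direct target of both hormones, was at 175, 48.5 and 70.4 CPM at P5 and at 404, 125 and 162 CPM at P13 (log2 fold change 1.23, standard error 0.54, edgeR adjusted p = 0.264), and P5 library 1 overlapped the P13 libraries. Of 17 clock genes, 1 rose, Nr1d1, the repressor Rev-erb alpha, at 27.9, 32.4 and 31.9 CPM at P5 and at 136, 166 and 154 CPM at P13 (log2 fold change 2.31, standard error 0.48, edgeR adjusted p = 0.0116), with a median of 0.64. Arntl, the activator it represses, was at 39.8 ± 8.1 CPM (SD, n = 3) at P5 and 62.1 ± 19.6 CPM at P13 (log2 fold change 0.64, edgeR adjusted p = 0.24), and the hour of collection is not in the labels. Of 21 immediate early and stress genes, which respond within minutes to cell isolation, 1 rose, Jun, at 719, 729 and 549 CPM at P5 and at 1732, 986 and 1204 CPM at P13 (log2 fold change 0.97, standard error 0.26, edgeR adjusted p = 0.0499), and the median was 0.08. Fos was at 1724, 852 and 466 CPM at P5 and at 3414, 1406 and 1455 CPM at P13 (log2 fold change 1.04, standard error 0.45, edgeR adjusted p = 0.256), and the ages overlapped. The digestion was longer for the older hearts, and its part in these values was not tested. The calls of Fdft1 (without P5 library 2 or 3 or P13 library 1, 2 or 3, edgeR adjusted p up to 0.146), Pfkp (without P5 library 2 or 3 or P13 library 1, 2 or 3, edgeR adjusted p up to 0.0892), Errfi1 (without P5 library 2 or 3 or P13 library 1 or 2, edgeR adjusted p up to 0.177) and Jun (without P5 library 1, 2 or 3 or P13 library 1 or 3, edgeR adjusted p up to 0.213) did not hold with 1 library left out. Those of Fdft1, Errfi1, Nr1d1 and Jun ended without both libraries 1.

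Lineage and contractile genes gave few calls. Over all genes tested, 1.54% rose and 1.65% fell. None of 38 transcription factors of the fibroblast lineage was called by edgeR, with a median of -0.20, while 3 were higher and 6 lower at an unadjusted p under 0.05, DESeq2 called 3 lower and limma voom 1 in each direction. Among them Tbx20 was at 171 ± 92.1 CPM (SD, n = 3) at P5 and 82.3 ± 58.6 CPM at P13 (log2 fold change -1.05, edgeR adjusted p = 0.317) and Gata4 at 305 ± 45 CPM (SD, n = 3) at P5 and 244 ± 39.7 CPM at P13 (log2 fold change -0.32, edgeR adjusted p = 0.515), both factors of the embryonic heart. None of 17 integrins was called by edgeR, with a median of 0.17, while 4 were higher and 1 lower at an unadjusted p under 0.05, DESeq2 called the same numbers and limma voom 1 higher. Both lists stand against 2633 of all 16170 genes at an unadjusted edgeR p under 0.05. Over all genes DESeq2 called 1285 and limma voom 707. Of 13 contractile and myofibroblast genes, 1 rose, and 10 were below 0 with a median of -0.45. It was Lmod1, leiomodin of smooth muscle, at 1.3, 0.646 and 0.848 CPM at P5 and at 3.9, 6.21 and 6.13 CPM at P13 (log2 fold change 2.53, standard error 0.67, edgeR adjusted p = 0.0492). Acta2, smooth muscle actin and the usual mark of myofibroblasts, was at 518, 815 and 676 CPM at P5 and at 247, 531 and 552 CPM at P13 (log2 fold change -0.60, standard error 0.36, edgeR adjusted p = 0.432), and the ages overlapped. The call of Lmod1 (without any 1 library, edgeR adjusted p up to 0.148) did not hold with 1 library left out. That of Lmod1 ended without both libraries 1.

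Markers of other cell types were low beside those of fibroblasts. The 9 fibroblast markers summed to 26524 to 33514 CPM at P5 and 44904 to 60866 CPM at P13. Of the cardiomyocyte list, 0 of 12 markers were called by edgeR and 11 were below 0, with a median of -1.47, while 7 were lower at an unadjusted p under 0.05, DESeq2 called 3 lower and limma voom 1. Their summed level was 1077, 1283 and 936 CPM at P5 and 165, 837 and 285 CPM at P13, so that the groups did not overlap, and 0 to 2 of the markers had no read in a library. Myh7, named for its values, had no read in any P13 library. Without P13 library 2, the highest of the P13 group, 4 of them were called lower. Tnni1, the slow skeletal troponin I that fetal cardiomyocytes also make, was among the 12 largest falls. It was at 45.7, 73.1 and 50.4 CPM at P5 and at 0, 5.76 and 1.08 CPM at P13 (log2 fold change -4.66, standard error 0.88, edgeR adjusted p = 0.00567), and it moved with this list. Whether its reads came from cardiomyocytes was not tested. In such bulk libraries fewer cells of a type and less RNA per cell cannot be told apart. Endothelial markers summed to 175 to 326 CPM at P5 and 256 to 474 CPM at P13, and erythroid markers to 51 to 307 CPM at P5 and 66.9 to 139 CPM at P13. Mural cell markers summed to 404 to 891 CPM at P5 and 718 to 1049 CPM at P13, with Vtn, which is also listed there, as the one called. Epicardial markers summed to 893 to 1194 CPM at P5 and 1003 to 1422 CPM at P13, nearly all of it from Aldh1a2, which fibroblasts also make, while Lrrn4 had no read in any sham library. Schwann cell markers summed to 25.9 to 45.6 CPM at P5 and 14.1 to 57 CPM at P13, and lymphoid markers to 0 to 2.67 CPM at P5 and 0.141 to 1.68 CPM at P13. None of the endothelial, epicardial, erythroid, Schwann cell or lymphoid markers was called by edgeR. At an unadjusted edgeR p under 0.05, 1 endothelial and 1 lymphoid marker were higher and 2 epicardial and 1 erythroid marker lower, and DESeq2 and limma voom each called 1 epicardial marker lower. Over all genes, 2633 of 16170 had an unadjusted edgeR p under 0.05, DESeq2 called 1285 and limma voom 707.

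The same age difference can be read in libraries outside the sham groups. These shared the estimate of the spread with the sham libraries, which alone gave 125 calls. Un-manipulated hearts at P10 and P2 gave 709 differentially expressed genes (438 higher and 271 lower at P10), which is 4.38% of those tested, and resected hearts collected at P13 and P5 gave 139 (101 higher and 38 lower), which is 0.86%. Of the 515 genes, 497 (96.5%) had the same direction at baseline and 510 (99.0%) after resection, against 66.3% and 69.6% of all genes. At baseline 275 of them were called in the same direction, which is 53.4% of the sham genes and 38.8% of the baseline genes. After resection 122 were called, which is 23.7% of the sham genes and 87.8% of the resection genes, and 36.6% of the genes called without P13 library 1. No gene was called in opposite directions. The genes that rose had a median log2 fold change of 1.62 after sham surgery, 1.21 at baseline and 1.14 after resection, and those that fell had -2.59, -1.69 and -1.46 in the same order. In all 3 comparisons 93 genes were called, 65 higher and 28 lower. The 515 genes were chosen on their sham values, and that choice favours larger values there. By list, G2/M genes had a median of -1.98 at baseline and -1.70 after resection, with 20 and 6 of 54 called. Elastic fibre genes had 1.40 and 0.43, with 9 and 1 of 17 called, and the universal fibroblast markers had 1.43 and 1.28, with 11 of 24 higher in each and 1 lower at baseline. The interferon and MHC class I list changed sign, with medians of -1.17 at baseline (2 higher and 7 lower), 0.59 after sham surgery and 1.63 after resection (4 higher). Its sum after resection was 3451, 2705 and 10007 CPM at P13 and 2153, 1743 and 2201 CPM at P5, so that P13 library 3 stood far above the others, and the change of sign was not tested for the list.

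**Figure D4:**
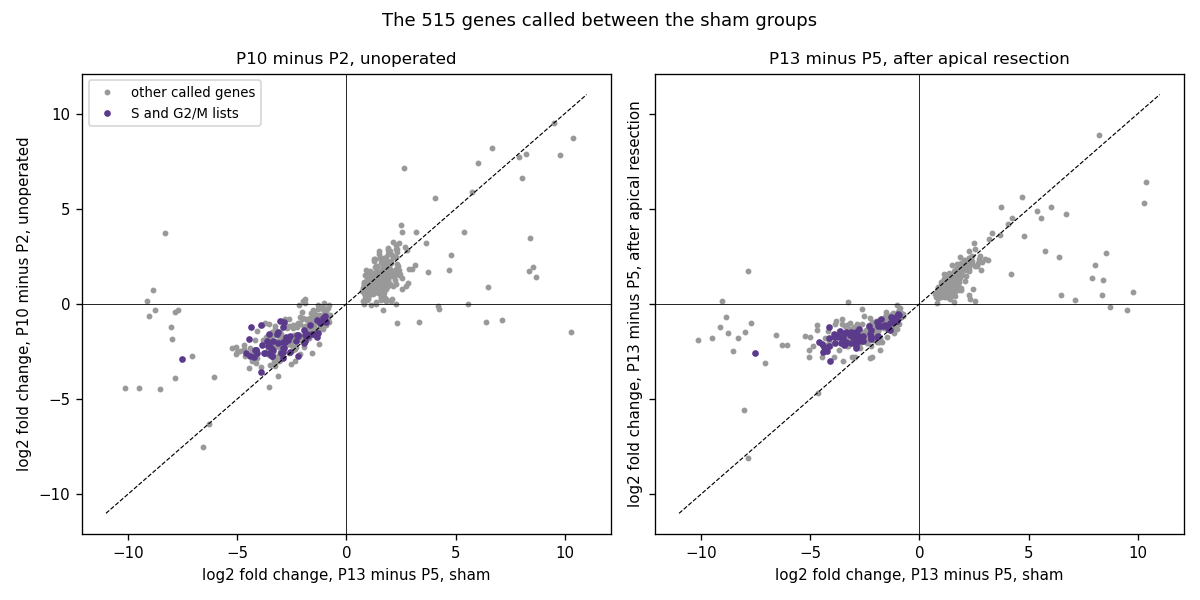
Log2 fold change of the 515 genes in the sham comparison (x axis) against the same genes at baseline, P10 minus P2 (left), and after resection, P13 minus P5 (right). Genes of the S and G2/M lists are purple and the others grey. Nearly all genes lie in the lower left and upper right corners of both plots, 497 and 510 of 515 with the same sign.

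Whether the age difference after sham surgery differed from those in the other libraries was tested gene by gene. For sham minus baseline 0 genes (0%) were called by edgeR, with a smallest adjusted p of 0.282. Of 16170 genes tested, 1067 had an unadjusted edgeR p under 0.05, against 2633 in the sham comparison itself. DESeq2 called 124, and edgeR without a filter on low counts called 171. With 1 library left out, edgeR calls numbered 1 without P5 library 2 and 2 without P13 library 2. The smallest p-values belonged to genes of several kinds. Fjx1, a secreted kinase-like protein of the Fat pathway, had log2 fold changes of -1.03 after sham surgery and 1.81 at baseline (difference -2.84, standard error 0.49, edgeR adjusted p = 0.282). Vtn had log2 fold changes of 2.62 after sham surgery and 7.12 at baseline (difference -4.49, standard error 0.82, edgeR adjusted p = 0.282). Higd1b, a pericyte gene, had log2 fold changes of 0.04 after sham surgery and 2.58 at baseline (difference -2.54, standard error 0.49, edgeR adjusted p = 0.31). Usp18, which removes the ubiquitin-like Isg15 and follows interferon, had log2 fold changes of 1.19 after sham surgery and -3.99 at baseline (difference 5.17, standard error 0.97, edgeR adjusted p = 0.282). Angptl4 had log2 fold changes of 1.61 after sham surgery and 0.29 at baseline (difference 1.32, standard error 0.28, edgeR adjusted p = 0.341), and Igfbp3 had log2 fold changes of 2.32 after sham surgery and -1.0 at baseline (difference 3.32, standard error 0.71, edgeR adjusted p = 0.341). None of the 6 passed the threshold. For sham minus resected, 0 genes (0%) were called by edgeR, with a smallest adjusted p of 0.99996. Of 16170 genes tested, 465 had an unadjusted edgeR p under 0.05. DESeq2 called 25, and edgeR called 30 without a filter on low counts and 4 without P13 library 2. Kif20a, a kinesin of cytokinesis, had log2 fold changes of -4.19 after sham surgery and -1.44 after resection (difference -2.75, standard error 0.70, edgeR adjusted p = 1.00), Cenpe had log2 fold changes of -7.53 after sham surgery and -2.59 after resection (difference -4.94, standard error 1.26, edgeR adjusted p = 1.00) and Myo1e, a membrane-bound myosin, had log2 fold changes of 2.25 after sham surgery and 0.48 after resection (difference 1.77, standard error 0.50, edgeR adjusted p = 1.00). The other genes with the smallest p-values, Gm42575, Grip2 and 6330415G19Rik, had no read in a whole group. Grip2, a scaffold of glutamate receptors, was at 0 CPM in all P5 libraries and at 0.0999, 8.41 and 6.22 CPM in the P13 libraries and was at least 90.9-fold higher at P13 after sham surgery, with the floor of 3 counts over the P5 group. The gene model 6330415G19Rik was at 0 CPM in all P5 libraries and at 0.449, 1.42 and 0.99 CPM in the P13 libraries and Gm42575 was at 2.09, 1.01 and 0.783 CPM in the P5 libraries and at 0 CPM in all P13 libraries, at least 17.9-fold higher and 25.5-fold lower at P13 by the same floor, and Gm42575 did not pass the test between the sham groups (edgeR adjusted p = 0.104). Kif20a shares 29.3% of its exon length with Cdc23 on the other strand. The calls of Grip2 (without P5 library 1, 2 or 3 or P13 library 2 or 3, edgeR adjusted p up to 0.0893), 6330415G19Rik (without P5 library 1, 2 or 3 or P13 library 2 or 3, edgeR adjusted p up to 0.0723) and Vtn (without P5 library 3, edgeR adjusted p up to 0.0734) did not hold with 1 library left out. That of 6330415G19Rik ended without both libraries 1.

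The sham and baseline groups can also be set in the order of collection age, P2, P5, P10 and P13, where surgery moves with neighbouring ages and cannot be told apart from them. Of the 249 genes that rose, the P10 baseline mean lay between the P5 and P13 means for 209 and nearer to the P13 mean for 198. Of the 266 genes that fell, it lay between for 242 and nearer to P13 for 205. Summed G2/M genes were at 4783 ± 242 CPM (SD, n = 3) at P2, 4694 ± 557 at P5, 1812 ± 332 at P10 and 1435 ± 121 at P13. The step lay between P5 and P10, while P2 and P5 overlapped and the nearest libraries of P10 and P13 nearly met. Imprinted genes were at 6976 ± 461, 5239 ± 943, 3621 ± 603 and 2559 ± 269 CPM in the same order, and each age was below the one before it in all libraries. The elastic fibre genes were at 9425 ± 783, 9956 ± 581, 20707 ± 1317 and 18837 ± 952 CPM, with the rise between P5 and P10 and the P13 libraries below those of P10. The universal fibroblast markers were at 10445 ± 208, 12929 ± 2396, 22973 ± 3669 and 36399.6 ± 1969.7 CPM, and complement genes at 585 ± 36, 839 ± 112, 1675 ± 51.6 and 3732 ± 879.6 CPM. Both of these sums were higher at each age than at the one before in every library. In the sham libraries Serping1 made up most of the complement sum.

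**Figure D5:**
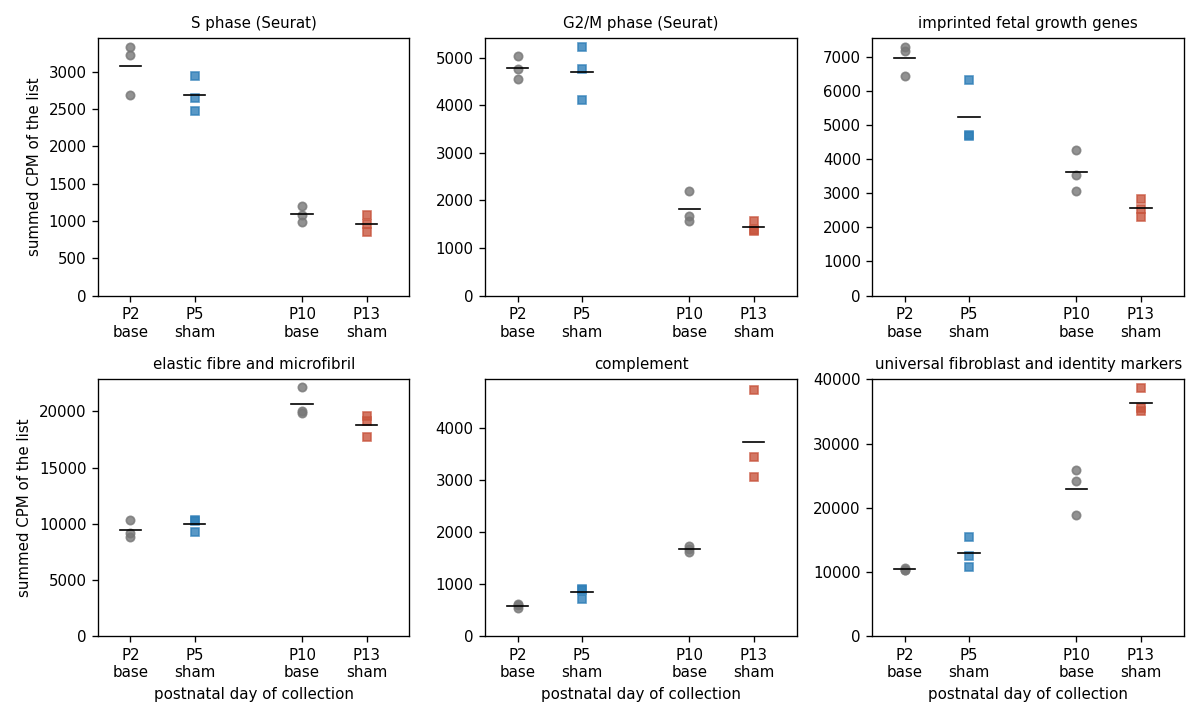
Summed CPM of 6 gene lists in each library (points) and their mean (bars) by postnatal day of collection, with baseline libraries as grey circles and sham libraries as coloured squares. The phase lists and elastic fibre genes show one step between P5 and P10, while the imprinted genes fall and the complement and universal fibroblast lists rise at every age.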

How the data were processed

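Bulk RNA sequencing was analysed for 6 sham libraries of GFP+ Tcf21-lineage cells, with the other 12 libraries of the series in the same fit. RNA was pre-amplified with SMARTer Ultra Low Input v4 and made into Nextera XT libraries, read from a single end. The authors trimmed reads with fastp 0.20.0, mapped them with STAR 2.7.0f to GRCm38.p6 with the GENCODE M22 annotation, and counted those on exons per gene name with featureCounts of Subread 1.6.4, unstranded. These counts, as whole numbers and not normalized, are what the authors deposited. Multi-mapping reads, and reads on the exons of more than 1 gene, are left out under the defaults of featureCounts.

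The table has 55453 gene symbols, of which 28906 had at least 1 count and 16170 passed filterByExpr (minimum count 10, minimum total 15). The test was the quasi-likelihood one of edgeR 4.0.16 (R 4.3.3), after TMM scaling, in a model with a mean for each group over the 18 libraries, which share 1 estimate of the spread, and genes were called at a Benjamini-Hochberg adjusted p under 0.05. Differences between age differences were contrasts of the same fit. Sham libraries held 14297349 to 21941305 counts. For a gene at 0 throughout a group, the fold was computed against 3 counts over that group; this floor is for counting error alone, as PCR copies of a molecule cannot be told apart here. Gene positions and exon overlaps are from GENCODE M21 of GRCm38, 1 release before the one counted on, which held 16073 of the 16170 genes. Shared 50-base stretches were counted among its transcripts. The code was tested on simulated data. Python 3.11.15 with pandas 2.3.3 and matplotlib 3.10.9 read the promoters and drew the figures.

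Genes named are, in each direction, up to 12 with the largest change among those called, without overlap and with a mean of at least 10 CPM in the higher group, up to 3 with the smallest p, up to 4 per gene list with the largest change, the usual members of each list, up to 3 with the smallest p in each direction of the 2 difference tests, Tcf21, Pdgfra, and 5 genes of the sex chromosomes (Xist on X; Uty, Kdm5d, Eif2s3y and Ddx3y on Y). The comparison, the lists (apart from the Seurat phase lists, grouped by family and role) and this rule were chosen with earlier results of these data known. Alternatives were DESeq2 1.42.0, limma 3.58.1 voom, RLE scaling, 2 other filters, the sham libraries alone, a replicate block and each library left out. A term for sex-linked transcripts (taken as present from 10 counts) and the fit without both libraries numbered 1 were added after seeing the data. Spatial data of the study were not used here, and some genes that this rule names are not reported.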

Additional observations from a re-analysis of the deposited data

How the results depend on the processing

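No called gene of the report, nor any of 8 named in the counts of families, changed direction under the alternatives that gave it a value. The median log2 fold change of all genes tested was 0.04 with DESeq2 and 0.00 without P5 library 1, against -0.07 as reported. Against the 515 genes reported, DESeq2 called 1285 (618 higher and 667 lower, 513 of the 515 among them), a fit without a filter on low counts called 911 (444 and 467), and the 6 sham libraries alone called 125 (59 and 66). Without both libraries numbered 1, 249 were called (117 and 132). With 1 sham library left out in turn the total was 312 to 416 (159 to 191 higher and 150 to 225 lower). With RLE scaling 522 genes, with at least 1 CPM in 3 sham libraries 576, with limma voom 707 and with the term for sex-linked transcripts 370 were called, of which 505, 501, 445 and 355 were among the 515. For the difference from the baseline comparison, DESeq2 called 124 genes, the fit without a filter 171, and fits with 1 library left out 0 to 2. For the difference from the resected comparison, they called 25, 30 and 0 to 4. The share of the called genes that were called after resection too was 43.4% without a filter and 28.8% to 36.6% with 1 library left out. Of 113 named genes called, 77 to 91 stayed called with a library left out and 45 of 111 in the sham libraries alone. Some calls ended in the sham libraries alone and in no other fit. Among them were those of Ccnb1, Cenpe, Kif4, Tnni1, H19, Nnat, Hmga2, Igfbp6, Igfbp7, Podn, Adamts2, Mmp2 and Fbln2. At this depth a gene without a read in a sham library may still have had up to 3 counts there.

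With the replicate number as a block 636 genes (321 higher and 315 lower) were called, 496 of them among the 515, and the 2 difference tests called 0 genes each. Deviations of same-numbered sham libraries from their group means correlated at 0.44, 0.29 and 0.07 for numbers 1, 2 and 3, not all over 0.1, and library 3 of P13 correlated better with library 2 of P5 (0.22), so that the numbers were not taken as pairs.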

Other observations

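A few further gene families were counted between the sham groups. They were picked by gene symbol after their values had been seen, so that their counts are a description without a test. Over all genes tested, 1.54% were called higher and 1.65% lower. Of 10 Srsf genes, the serine and arginine-rich splicing factors, 5 fell and all 10 were below 0, with a median log2 fold change of -0.78 against -0.07 for all genes. Srsf7 was at 284, 324 and 378 CPM at P5 and at 136, 145 and 166 CPM at P13 (log2 fold change -1.14, standard error 0.20, edgeR adjusted p = 0.00369). Srsf1 was at 187, 149 and 183 CPM at P5 and at 93.2, 74.1 and 80.4 CPM at P13 (log2 fold change -1.07, standard error 0.19, edgeR adjusted p = 0.00369). The P13 libraries lay below the P5 libraries for both. Of 20 genes of hnRNP proteins, which package nascent RNA, 3 fell and all 20 were below 0, with a median of -0.64. Hnrnpm was at 282, 193 and 256 CPM at P5 and at 133, 109 and 144 CPM at P13 (log2 fold change -0.92, standard error 0.20, edgeR adjusted p = 0.0135), without overlap.

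All 11 cathepsins tested were above 0, with a median of 0.84, and 4 rose. Ctsf was at 64.9, 63.4 and 51.0 CPM at P5 and at 148, 167 and 143 CPM at P13 (log2 fold change 1.35, standard error 0.24, edgeR adjusted p = 0.00369). Ctsk, the collagen-degrading cathepsin K, was at 78.4, 138 and 122 CPM at P5 and at 203, 233 and 214 CPM at P13 (log2 fold change 0.94, standard error 0.22, edgeR adjusted p = 0.0252). Both were higher in every P13 library. Of 4 HtrA serine proteases 3 rose, with a median of 1.84. Htra3 was at 626, 1046 and 699 CPM at P5 and at 4381, 3410.3 and 3531 CPM at P13 (log2 fold change 2.26, standard error 0.27, edgeR adjusted p = 0.000242), far apart between the ages. Of 4 atypical chemokine receptors, which take up chemokines without signalling through G proteins, 3 rose, with a median of 2.63. Beside Ackr3, which is counted above among the chemokines and the universal fibroblast markers, they were Ackr2, at 8.73, 15.9 and 9.07 CPM at P5 and at 81.0, 75.7 and 61.2 CPM at P13 (log2 fold change 2.69, standard error 0.41, edgeR adjusted p = 0.00132), and Ackr4, at 9.75, 41.0 and 29.1 CPM at P5 and at 82.2, 107 and 94.9 CPM at P13 (log2 fold change 1.83, standard error 0.39, edgeR adjusted p = 0.0127). The ages did not overlap for either. With 1 library left out, 2 of the calls given for these families did not hold. They were Ctsk (without P5 library 1 or 3 or any 1 P13 library) and Hnrnpm (without P5 library 1 or 3 or P13 library 2), and both ended without both libraries 1 as well. In the sham libraries alone Ackr2 and Htra3 passed and the other 6 did not.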
